A study of Bos taurus with 15 samples.

Results

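The zona pellucida glycoprotein genes ZP2 and ZP4 were followed by RNA sequencing through 15 libraries of bovine (Bos taurus) oocytes, in which vitrified oocytes were set against fresh ones. The members were taken by gene name from a list of 3 (ZP2, ZP3 and ZP4), and 2 of the 24616 genes in the table, ZP2 and ZP4, carried such a name. ZP3 was not analysed here. There were 5 groups of 3 libraries. In 4 of them a cryoprotective agent at 5.6 M or at 6.6 M was combined with cooling in liquid helium or in liquid nitrogen (called helium or nitrogen 5.6 M and 6.6 M here), and the last was fresh oocytes. Vitrification cools cells so fast in a concentrated protectant that their water turns to glass, and the groups cross 2 coolants, helium being the colder, with 2 protectant concentrations. All 5 groups are labelled as in vitro matured (22 to 24 h, 38.5 °C) and freed of cumulus cells with hyaluronidase, whereas the series title calls the oocytes immature, so their stage cannot be settled from the labels. The sources used here do not give the age of the donors, the number of oocytes in a library or whether replicates came from separate animals. The p-values below therefore measure the spread among these libraries alone, and that spread may be technical.

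The zona pellucida is the glycoprotein coat that the growing oocyte secretes around itself. Its proteins share a ZP domain through which they polymerise into filaments, and in cattle the coat is built from the products of ZP2, ZP3 and ZP4, the ZP1 gene being a pseudogene. Sperm bind to the coat, and after fertilisation ovastacin, a protease that the egg releases from its cortical granules, cleaves ZP2, which in the mouse stops further sperm from binding. Transcription of zona genes is a feature of growing oocytes, and in the mouse it requires the oocyte transcription factor FIGLA, so the transcripts of a grown oocyte are largely a stored supply. The zona is of practical interest in vitrification because it can harden when oocytes are cooled or exposed to cryoprotectant.

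ZP2 (ENSBTAG00000011504) spans 19228387 to 19240185 on chromosome 25 of the UMD3.1 build, and ZP4 (ENSBTAG00000026085) spans 10664110 to 10671377 on chromosome 28. The lengths behind their deposited FPKM values (fragment counts scaled by gene length and library total) were 2197 bases for ZP2 and 1659 for ZP4. Neither span overlapped another gene of the table. The surroundings of the genes differed. The nearest gene on the lower side of ZP2, TMEM159, which encodes a protein of lipid droplet formation, lay 26397 bases away and averaged 589 FPKM, about the level of ZP4. The nearest on the higher side, ANKS4B, lay 28096 bases away and averaged 1.51 FPKM, and the other 4 of the 6 nearest genes averaged between 0 and 3.99 FPKM. Around ZP4, the calcium channel gene RYR2, 96778 bases away, averaged 0.264 FPKM, and the other 5 of the 6 nearest genes were at 0 counts in all 15 libraries.

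Both zona transcripts ranked among the most abundant of the oocyte in every group. Averaged over the 15 libraries ZP2 stood at 1254 FPKM and ranked 72 of 24616 genes, and ZP4 stood at 527 FPKM and ranked 232. Within single libraries the rank of ZP2 lay between 52 and 124 and that of ZP4 between 122 and 478. Library totals ran from 1601519 to 8569618 counts. ZP2 drew between 2773 and 26250 counts per library, and ZP4 between 615 and 10880. Counting error at the lowest of these counts amounts to 1.90% of the value for ZP2 and 4.03% for ZP4, which is below the coefficient of variation within every group. The largest share of a library held by ZP2 was 0.365% of all counts, in helium 5.6 M library 5 (0.361 to 0.370, 95% Clopper-Pearson, exact). The smallest was 0.173%, in fresh library 1 (0.167 to 0.180). For ZP4 the largest share was 0.141%, in helium 6.6 M library 1 (0.138 to 0.144), and the smallest 0.0384%, in fresh library 1 (0.0354 to 0.0416). Only counting error enters these intervals.

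ZP2, whose product carries the site that ovastacin cleaves, stood at 1394, 1496 and 1663 FPKM in helium 5.6 M libraries 3, 4 and 5. In helium 6.6 M libraries 1, 2 and 3 it stood at 1462, 1445 and 1321 FPKM. Nitrogen 5.6 M libraries 1, 2 and 3 held 1016, 1286 and 1150 FPKM. In FPKM the 6 helium libraries thus lay in a narrow band, and the 3 nitrogen 5.6 M libraries lay below all of them. Nitrogen 6.6 M libraries 1, 2 and 3 held 1209, 1349 and 984 FPKM of ZP2, the second of these falling inside the helium range. Fresh libraries 1, 2 and 3 held 788, 1382 and 867 FPKM, so that fresh library 2 stood apart from the other two of its group and inside the range of the vitrified libraries. By mean the groups ordered as helium 5.6 M (1518 ± 136 FPKM, SD, n = 3 in every group), helium 6.6 M (1409 ± 77.0), nitrogen 6.6 M (1180 ± 184), nitrogen 5.6 M (1151 ± 135) and fresh (1012 ± 323). Between neighbours in this order, the step from helium 6.6 M to nitrogen 6.6 M exceeded the SD of both groups in FPKM, and each other step was smaller than the larger SD of its pair. In CPM after TMM scaling (explained with the tests below) that step was lost, at 2965 ± 209 with helium 6.6 M and 2686 ± 457 with nitrogen 6.6 M. The separation of nitrogen 5.6 M from helium was lost too. Nitrogen 5.6 M library 2, at 3061 CPM, lay above helium 5.6 M library 3 (2854) and helium 6.6 M libraries 2 and 3 (2860 and 2830).

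**Figure D1:**
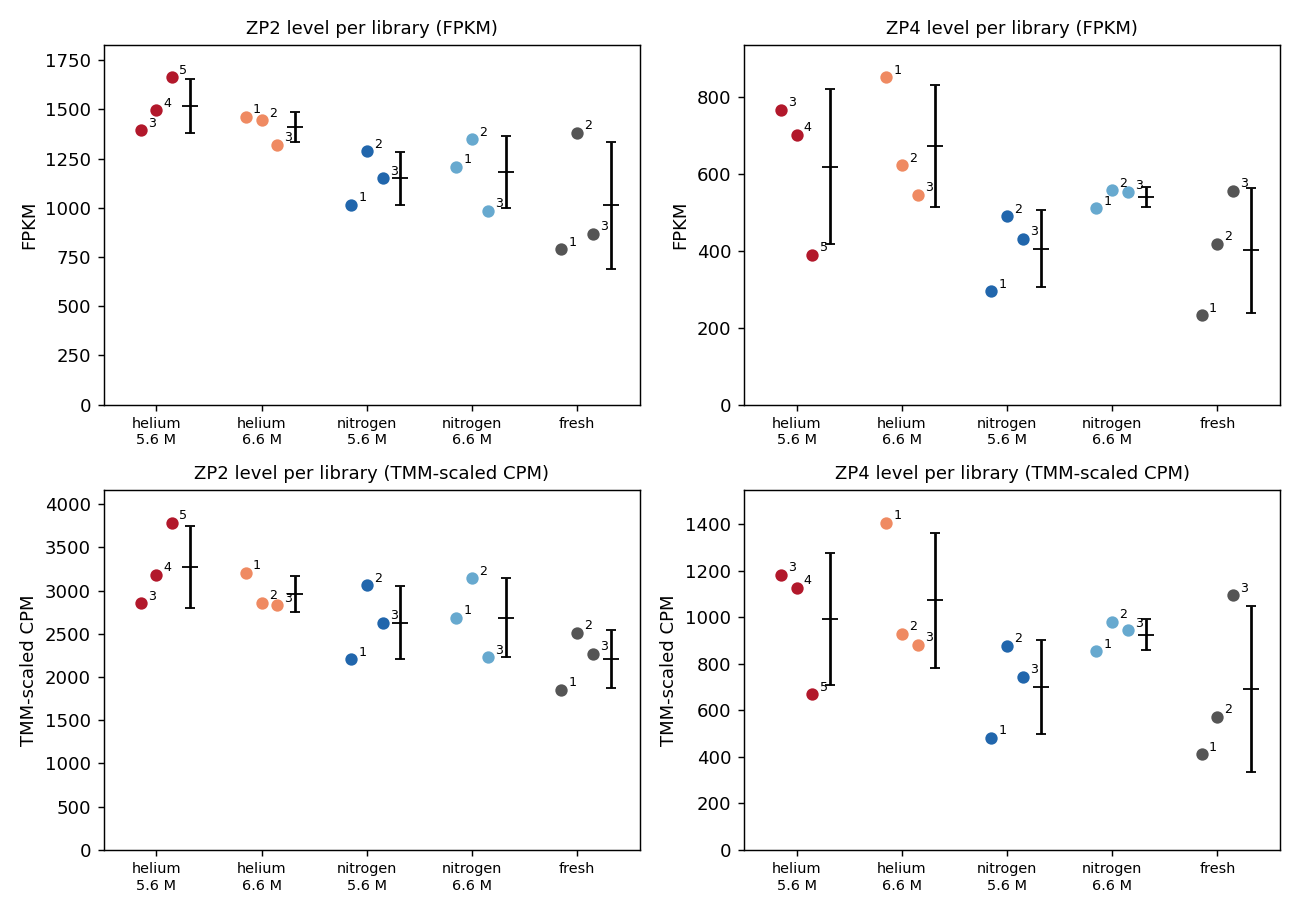
Levels of ZP2 (left) and ZP4 (right) in each library, in FPKM (top row) and in TMM-scaled CPM (bottom row), with points numbered by replicate and the mean ± SD of the 3 libraries of a group at its right. ZP2 in helium libraries lies at 1321 FPKM or more, and fresh library 2, at 1382 FPKM, lies within that range, whereas in TMM-scaled CPM it lies below all 6 helium libraries.

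ZP4 is a filament component that the mouse lacks as a working gene but cattle, pigs and humans keep. It was the more variable of the pair in every group but nitrogen 6.6 M. There its coefficient of variation in FPKM was 4.78%, against 15.6% for ZP2. ZP4 stood at 765, 700 and 389 FPKM in helium 5.6 M libraries 3, 4 and 5, and at 850, 622 and 545 FPKM in helium 6.6 M libraries 1, 2 and 3. Nitrogen 5.6 M libraries 1, 2 and 3 held 294, 489 and 431 FPKM. The highest ZP4 values were in helium libraries, but helium 5.6 M library 5 and helium 6.6 M library 3 lay within the range of the 6 nitrogen libraries (294 to 556 FPKM). Nitrogen 6.6 M libraries 1, 2 and 3 lay close together at 509, 556 and 551 FPKM. Fresh libraries 1, 2 and 3 held 231, 417 and 555 FPKM, a spread that takes in 7 of the 12 vitrified libraries. The group means were 672 ± 159 FPKM with helium 6.6 M, 618 ± 201 with helium 5.6 M, 539 ± 25.8 with nitrogen 6.6 M, 405 ± 99.9 with nitrogen 5.6 M and 401 ± 162 in fresh oocytes (SD, n = 3 each). The step from nitrogen 6.6 M to nitrogen 5.6 M exceeded the SD of both groups, and no other step between neighbours did. The coefficient of variation within groups ran from 4.78% to 40.4% for ZP4 and from 5.46% to 31.9% for ZP2, with fresh oocytes the most variable group for both genes in FPKM. In TMM-scaled CPM they remained so for ZP4 (51.6%), but for ZP2 nitrogen 6.6 M (17.0%) and nitrogen 5.6 M (16.3%) varied more than fresh (15.1%).

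Per length of transcript, ZP2 exceeded ZP4 in all 15 libraries, by 1.56-fold to 4.28-fold. ZP4 amounted to 41.7% ± 16.4 of the ZP2 level with helium 5.6 M, 47.5% ± 9.28 with helium 6.6 M, 34.8% ± 5.09 with nitrogen 5.6 M, 46.5% ± 8.29 with nitrogen 6.6 M and 41.2% ± 19.8 in fresh oocytes (SD, n = 3 each). All 3 nitrogen 5.6 M libraries (28.9% to 38.0%) lay below all helium 6.6 M (41.2% to 58.1%) and nitrogen 6.6 M libraries (41.2% to 56.0%), and the other pairs of groups overlapped. The extremes were 23.4% in helium 5.6 M library 5, which had the highest ZP2 of all, and 64.0% in fresh library 3. Summed over both genes, the level was 2136 ± 75.1 FPKM with helium 5.6 M, 2081 ± 224 with helium 6.6 M, 1555 ± 234 with nitrogen 5.6 M, 1720 ± 185 with nitrogen 6.6 M and 1414 ± 390 in fresh oocytes. The 2 transcripts varied only loosely together. Pearson's r between their log2(TMM-scaled CPM + 1) values was 0.524 over the 15 libraries, 0.357 over the 12 vitrified ones and 0.282 over all 15 after removal of the group means. These are descriptions, since the libraries of a group share their treatment and both genes share each library's scaling.

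**Figure D2:**
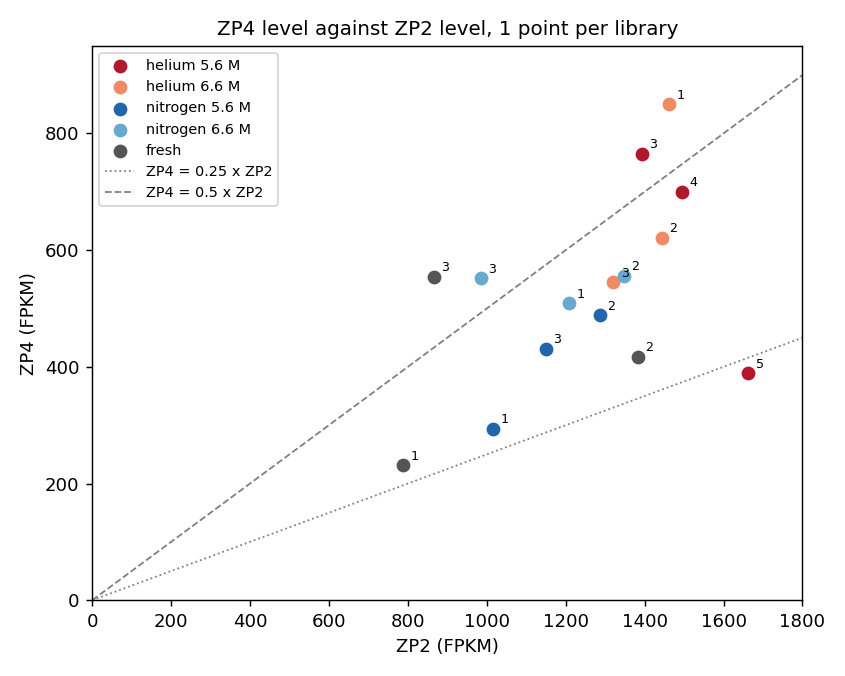
ZP4 level against ZP2 level, both in FPKM, with 1 point per library numbered by replicate and coloured by group. Grey lines mark ZP4 at 0.25 and 0.5 of ZP2. Most libraries lie between the lines, with fresh library 3 (64.0%) farthest above and helium 5.6 M library 5 (23.4%) farthest below.

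Differences between groups were tested with edgeR's quasi-likelihood test, fitted over the 8441 genes with enough counts, both zona genes among them, and with Benjamini-Hochberg adjustment over all of these. The scaling was TMM (a trimmed mean of log ratios between libraries), which corrects for differences in composition, and the resulting CPM values (counts scaled to a common total) are comparable between libraries but not between genes of unequal length. TMM raised the effective size of fresh library 2 by a factor of 1.22 and lowered that of fresh library 3 to 0.843. ZP2 accordingly stood at 1852, 2510 and 2266 CPM in fresh libraries 1, 2 and 3, a tighter group than in FPKM. On this scale all 6 helium libraries, at 2830 to 3788 CPM, lay above all fresh ones, as did 4 of the 6 nitrogen libraries, which ran from 2206 to 3145 CPM. How many of all genes separate the groups in this way was not counted, here or in the comparisons below.

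All vitrified oocytes were compared with fresh ones to ask whether zona transcripts differed after vitrification as such. ZP2 averaged 2889 ± 438 CPM in vitrified libraries (SD, n = 12) and 2209 ± 333 CPM in fresh libraries (n = 3), and 10 of the 12 vitrified libraries lay above all fresh ones. ZP4 averaged 923 ± 242 CPM in vitrified libraries and 693 ± 358 CPM in fresh libraries, with 3 of 12 above every fresh one. Neither difference passed the test. The log2 fold change of ZP2 was 0.38 (95% interval 0.03 to 0.73, edgeR adjusted p = 0.322, unadjusted p = 0.0352), and that of ZP4 was 0.39 (interval -0.13 to 0.92, adjusted p = 0.526, unadjusted p = 0.134). Thus 0 of the 2 zona genes passed by edgeR, DESeq2 or limma, and 1 had an unadjusted edgeR p under 0.05, where 0.509% of all genes tested passed (43 of 8441) and 13.6% had an unadjusted p under 0.05. The zona values lay toward the upper end of all genes, of which 12.5% had a higher log2 fold change than ZP2 and 11.9% a higher one than ZP4, at a median of -0.03 over all genes. The ZP4 value moved with the fresh library left out. It was 0.91 without fresh library 3 (edgeR adjusted p = 0.134), 0.26 without fresh library 2 (adjusted p = 0.674) and 0.16 without fresh library 1 (adjusted p = 0.888).

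Each vitrified group was then compared with the same fresh libraries, which the 4 comparisons share. Every helium library held more counts than any fresh one, so in the 2 helium comparisons depth and treatment cannot be told apart. With helium at 5.6 M, ZP2 averaged 3276 ± 473 CPM against 2209 ± 333 CPM in fresh oocytes, a log2 fold change of 0.57 (95% interval 0.13 to 1.00, edgeR adjusted p = 0.204, unadjusted p = 0.0131). This was the largest ZP2 difference of the 4, and all 3 helium 5.6 M libraries lay above all 3 fresh ones in FPKM and in TMM-scaled CPM. The share of all genes that do so was not determined. ZP4 averaged 992 ± 282 CPM with helium at 5.6 M and 693 ± 358 CPM in fresh oocytes, a log2 fold change of 0.52 (interval -0.13 to 1.17, edgeR adjusted p = 0.476). Neither zona gene passed by edgeR, DESeq2 or limma, where 0.474% of genes tested passed by edgeR (40 of 8441). ZP2 had an unadjusted p under 0.05, as had 14.1% of all genes. The adjusted p of ZP2 came nearest to the threshold with DESeq2, at 0.0578, and was 0.0613 by edgeR without fresh library 2. The ZP4 value was 1.03 without fresh library 3 (edgeR adjusted p = 0.170) and 0.27 without fresh library 1 (adjusted p = 0.785).

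With helium at 6.6 M, ZP2 averaged 2965 ± 209 CPM against 2209 ± 333 CPM in fresh oocytes, a log2 fold change of 0.42 (95% interval -0.01 to 0.86, edgeR adjusted p = 0.337). ZP4 averaged 1072 ± 291 CPM against 693 ± 358 CPM, the largest ZP4 difference of the 4 at 0.63 (interval -0.02 to 1.28, edgeR adjusted p = 0.344). All 3 helium 6.6 M libraries lay above every fresh one for ZP2 in TMM-scaled CPM, and 1 of 3 did for ZP4. Of the zona genes 0 passed by edgeR, DESeq2 or limma and 0 had an unadjusted edgeR p under 0.05, where 0.628% of genes tested passed (53 of 8441) and 15.4% had an unadjusted p under 0.05. The 9 oocyte markers described below had a median log2 fold change of 0.41 in this comparison, with 8 of 9 above 0. The median over all genes was -0.02. In the other comparisons with fresh the marker median was smaller. It was 0.15 for helium 5.6 M (6 of 9 above 0) and 0.03 for all vitrified (5 of 9). For nitrogen 5.6 M and 6.6 M it was -0.03 and -0.02 (4 of 9 in each). Blocking on the replicate number across all 15 libraries left 3 genes of all those tested past the threshold in this comparison. The zona values were then 0.44 for ZP2 (edgeR adjusted p = 0.421) and 0.72 for ZP4 (edgeR adjusted p = 0.359, unadjusted p = 0.0431). Without fresh library 3 the ZP4 value was 1.14 (edgeR adjusted p = 0.0960), without fresh library 1 it was 0.39 (adjusted p = 0.759), and without helium 6.6 M library 1 it was 0.38.

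With nitrogen at 5.6 M, ZP2 averaged 2631 ± 427 CPM against 2209 ± 333 CPM in fresh oocytes (log2 fold change 0.25, 95% interval -0.18 to 0.69, edgeR adjusted p = 0.850). ZP4 was level with fresh oocytes by mean, at 701 ± 201 CPM against 693 ± 358 CPM (0.02, interval -0.63 to 0.67, edgeR adjusted p = 0.996). This interval is wide enough to hold a difference of the size seen in the helium groups. The sign of the ZP4 value turned when 1 of several libraries was left out: it was -0.19 without fresh library 1, -0.12 without fresh library 2, and -0.13 without nitrogen 5.6 M library 2. Leaving out fresh library 3 gave 0.53. With nitrogen at 6.6 M, ZP2 averaged 2686 ± 457 CPM against 2209 ± 333 CPM (0.28, interval -0.15 to 0.72, edgeR adjusted p = 0.783) and ZP4 926 ± 64.6 CPM against 693 ± 358 CPM (0.42, interval -0.23 to 1.07, edgeR adjusted p = 0.785). Without fresh library 3 the ZP4 value at 6.6 M was 0.93 (edgeR adjusted p = 0.225), and without fresh library 1 it was 0.19 (adjusted p = 0.922). None of these 4 values passed by edgeR, DESeq2 or limma, and 0 had an unadjusted edgeR p under 0.05. With 1 library left out, the ZP2 values ran from 0.18 (without nitrogen 5.6 M library 2) to 0.41 (without nitrogen 5.6 M library 1) at 5.6 M and from 0.17 (without nitrogen 6.6 M library 2) to 0.40 (without nitrogen 6.6 M library 3) at 6.6 M. Of all genes tested 0.0118% passed at 5.6 M (1 of 8441) and 0.0474% at 6.6 M (4 of 8441). An unadjusted edgeR p under 0.05 was reached by 6.74% of them at 5.6 M and by 8.23% at 6.6 M.

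**Figure D3:**
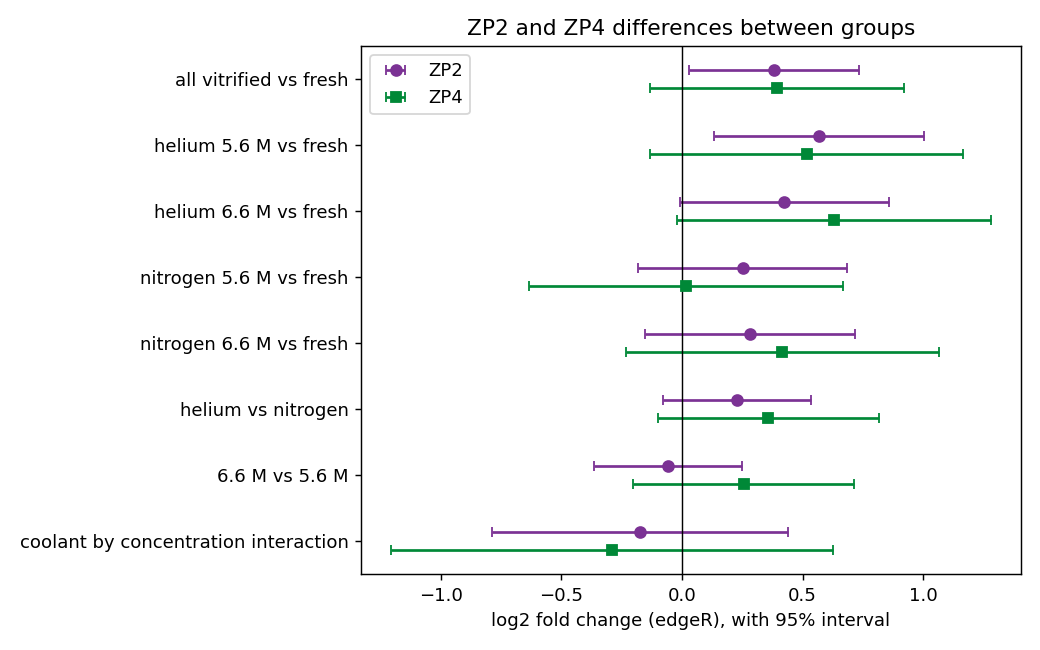
Log2 fold changes of ZP2 (circles) and ZP4 (squares) in the 8 comparisons, from the edgeR fit of all 15 libraries, with 95% intervals that are not adjusted for multiple testing. The intervals of ZP2 for all vitrified oocytes and for helium 5.6 M against fresh lie above 0, although their adjusted p-values are 0.322 and 0.204, and the other 14 include 0.

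The coolants were compared directly, over both concentrations. ZP2 averaged 3120 ± 369 CPM in helium libraries and 2658 ± 397 CPM in nitrogen libraries (SD, n = 6 each), a log2 fold change of 0.23 (95% interval -0.08 to 0.54, edgeR adjusted p = 0.446). ZP4 averaged 1032 ± 260 CPM in helium libraries and 813 ± 182 CPM in nitrogen libraries, 0.36 (interval -0.10 to 0.82, edgeR adjusted p = 0.428). In each gene 3 of 6 helium libraries lay above every nitrogen one in TMM-scaled CPM, and in FPKM 5 of 6 did for ZP2 and 4 of 6 for ZP4. Neither gene passed by edgeR, DESeq2 or limma and neither had an unadjusted edgeR p under 0.05, where 0.663% of genes tested passed (56 of 8441) and 16% had an unadjusted p under 0.05. Without nitrogen 5.6 M library 1 the values were 0.15 for ZP2 and 0.23 for ZP4, and without helium 6.6 M library 1 the ZP4 value was also 0.23. Sequencing depth went with the coolant: the 6 helium libraries and nitrogen 6.6 M library 3 each held 6346848 to 8569618 counts and the other 8 libraries 1601519 to 2822837. Among the 7 deeper libraries ZP2 stood at 1464 ± 115 FPKM in the 6 helium ones and at 984 FPKM in the 1 nitrogen library, and ZP4 at 645 ± 165 FPKM in the helium ones and 551 FPKM in the nitrogen one. Among the 8 shallower libraries ZP2 stood at 1202 ± 128 FPKM in the 5 nitrogen ones and 1012 ± 323 FPKM in the 3 fresh ones, and ZP4 at 456 ± 101 FPKM in the nitrogen ones and 401 ± 162 FPKM in the fresh ones. All 6 helium libraries lay above that nitrogen library in ZP2, and in ZP4 the helium libraries at 389 and 545 FPKM lay below it. With 1 deeper nitrogen library, depth and coolant cannot be told apart. Between helium and fresh, depth and treatment cannot be told apart either, since all 6 helium libraries were deeper and all 3 fresh ones shallower. With depth class as a term in the fit, which rests on that library, the ZP2 difference between helium and nitrogen was 0.56 and not 0.23 (edgeR adjusted p = 0.401), and those against fresh were 0.95 and not 0.57 for helium 5.6 M (edgeR adjusted p = 0.383) and 0.81 and not 0.42 for helium 6.6 M (edgeR adjusted p = 0.493). The ZP4 values with this term were slightly lower, at 0.32 and not 0.36 between coolants, 0.48 and not 0.52 for helium 5.6 M and 0.59 and not 0.63 for helium 6.6 M.

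The concentrations were compared over both coolants. ZP2 averaged 2826 ± 353 CPM at 6.6 M and 2953 ± 536 CPM at 5.6 M (SD, n = 6 each), a log2 fold change of -0.06 (95% interval -0.36 to 0.25, edgeR adjusted p = 1, unadjusted p = 0.702). ZP4 averaged 999 ± 205 CPM at 6.6 M and 847 ± 271 CPM at 5.6 M, 0.26 (interval -0.20 to 0.71, edgeR adjusted p = 1, unadjusted p = 0.256). Whether the concentration acted differently in the 2 coolants was tested as an interaction, which came to -0.17 for ZP2 (interval -0.79 to 0.44, edgeR adjusted p = 1) and -0.29 for ZP4 (interval -1.21 to 0.63, edgeR adjusted p = 1). With 1 library left out the interaction ran from -0.29 (without nitrogen 6.6 M library 3) to -0.0021 (without nitrogen 6.6 M library 2) for ZP2 and from -0.54 (without helium 6.6 M library 1) to -0.06 (without nitrogen 5.6 M library 1) for ZP4. The ZP4 value for concentration ran from 0.13 (without helium 6.6 M library 1) to 0.35 (without nitrogen 5.6 M library 2). In both tests 0 of the 2 zona genes passed by edgeR, DESeq2 or limma and 0 had an unadjusted edgeR p under 0.05. By edgeR 0% of all genes passed in either test (0 of 8441), with 189 genes at an unadjusted p under 0.05 for the concentration and 177 for the interaction.

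The identity of the libraries as oocytes was checked with marker genes. The 9 oocyte markers found, among them the oocyte-secreted growth factor genes BMP15 and GDF9, were counted in all 15 libraries, with FIGLA counted both here and among the transcription factors below. Their summed level ran from 3756 to 4581 FPKM with helium 5.6 M, 3821 to 5144 with helium 6.6 M, 2620 to 3427 with nitrogen 5.6 M, 2980 to 4081 with nitrogen 6.6 M and 2416 to 5231 in fresh oocytes. The highest sum was in fresh library 2, the fresh library with the most ZP2. In the comparison of helium with nitrogen the 9 oocyte markers had a median log2 fold change of 0.36, against 0.03 over all genes, with 0 of 9 past the threshold by edgeR, DESeq2 or limma and 4 of 9 at an unadjusted edgeR p under 0.05, against 16% of all genes. Of 17 cumulus and granulosa markers found, the follicle-stimulating hormone receptor gene FSHR was at 0 in all libraries, and the anti-Müllerian hormone gene AMH and the aromatase gene CYP19A1 averaged 0.0486 and 0.143 FPKM. Other members were counted in all 15 libraries, with the steroid transport gene STAR at 63.8 FPKM, the hyaluronan synthase gene HAS2 at 36.6, SERPINE2 at 18.6 and the gap junction gene GJA1 at 6.48. The summed level of all 17 ran from 127 to 162 FPKM with helium 5.6 M, 121 to 382 with helium 6.6 M, 126 to 135 with nitrogen 5.6 M, 120 to 128 with nitrogen 6.6 M and 110 to 176 in fresh oocytes, the 382 being that of helium 6.6 M library 2. Of 7 tested members SERPINE2, a protease inhibitor gene, rose with helium 6.6 M against fresh (log2 fold change 1.5, SE 0.32, edgeR adjusted p = 0.0317). It passed there by DESeq2 but not by limma, where 0.628% of all genes passed by edgeR and 255 of 8441 by DESeq2. By DESeq2 alone SERPINE2 also passed for all vitrified (1.06, edgeR adjusted p = 0.0905) and helium 5.6 M (1.19, edgeR adjusted p = 0.0902) against fresh. In these, 189 and 233 of all genes passed by DESeq2. In helium 6.6 M against fresh HAS2, STAR and GJA1 had -0.43, -0.21 and -0.09. PTX3 had 0.07, the median of the 7. TIMP1 and TNFAIP6, each counted in 9 of 15 libraries, had 6.79 (SE 2.38, edgeR adjusted p = 0.198) and 3.82 (SE 1.54, edgeR adjusted p = 0.243). Of the 7, 4 had an unadjusted edgeR p under 0.05, against 15.4% of all genes. Between helium and nitrogen the median of the 7 was 0.56, with 3 at an unadjusted edgeR p under 0.05. Without helium 6.6 M library 2 the log2 fold changes of helium 6.6 M against fresh were 0.45 for ZP2 and 0.72 for ZP4. Of 5 blood and immune markers found, the haemoglobin gene HBB and the monocyte gene CD14 were at 0 in all libraries, and the sum ran from 0 to 5.77 FPKM. The 1 tested member, CD3E, was counted in 14 of 15 libraries at a mean of 2.88 FPKM. Against fresh its log2 fold change was 1.34 for all vitrified, 1.4 for helium 5.6 M and 1.71 for helium 6.6 M. Its unadjusted edgeR p was under 0.05 in these, against 13.6%, 14.1% and 15.4% of all genes. With nitrogen 5.6 M and 6.6 M it had 1.05 and 1.22. CD3E passed in no comparison by edgeR, DESeq2 or limma. What the oocyte, cumulus and immune markers contribute to the zona values was not tested. In such bulk libraries fewer cells and less RNA per cell cannot be told apart.

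Genes with roles around the zona were taken as 5 lists of 63 symbols, of which 51 were found and 29 had enough counts to be tested. By edgeR 0 of the 29 passed in any of the 8 comparisons, and 22 of 232 single tests reached an unadjusted p under 0.05 (9.48%, against 9.81% over all genes and comparisons). By limma 0 passed. By DESeq2 1 passed, RPN2, a subunit gene of the oligosaccharyltransferase that attaches N-glycans, in helium 6.6 M against fresh oocytes (edgeR log2 fold change 0.86, SE 0.24, edgeR adjusted p = 0.0959). In that comparison 255 of the 8441 genes passed by DESeq2.

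Transcription factors of the zona genes were far less abundant than their targets. LHX8, which acts early in oocyte growth in the mouse, averaged 53.0 FPKM over the 15 libraries. FIGLA, the helix-loop-helix factor required for zona gene transcription in the mouse, averaged 21.7 FPKM (range 10.5 to 44.5). TCF12, a partner of such factors, averaged 5.00 FPKM, and NOBOX and TCF3 stood at 2.84 and 2.65 FPKM. Of the 5 tested genes of this list 0 passed between vitrified and fresh oocytes by edgeR, DESeq2 or limma, where 0.509% of all genes passed by edgeR. An unadjusted edgeR p under 0.05 was found for 1 of the 5, against 13.6% of all genes. The median log2 fold change was 0.28, against -0.03 over all genes.

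Among genes of zona cleavage and cortical granule release, ASTL, which encodes ovastacin, averaged 14.6 FPKM (range 5.53 to 27.7). Its inhibitor gene FETUB, a product of the liver, averaged 0.134 FPKM. The membrane fusion genes SNAP23 and NSF averaged 66.1 and 15.2 FPKM. FURIN, a protease of the class that trims zona precursors as they are secreted, was low at 0.173 FPKM and was not tested. The 7 tested genes had a median of -0.04 between vitrified and fresh oocytes, and 0 passed by edgeR, DESeq2 or limma or had an unadjusted edgeR p under 0.05. Of all genes 0.509% passed by edgeR there and 13.6% had an unadjusted p under 0.05. ASTL itself had a log2 fold change of 0.33 (SE 0.32, edgeR adjusted p = 0.731).

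Other genes whose products carry a ZP domain or part of one gave 1 abundant transcript. TECTB, which encodes the inner-ear matrix protein beta-tectorin, averaged 109 FPKM and ranged from 79.1 to 132. PLAC1 averaged 9.50 FPKM, and TGFBR3, a co-receptor gene for growth factors of the TGF-beta family, averaged 3.05 FPKM. The other 5 of the 8 found were not tested, with TECTA at 0.0703 FPKM and ZPLD1, UMOD, GP2 and UMODL1 at 0 counts in all libraries. The log2 fold change of TECTB between vitrified and fresh oocytes was -0.25 (SE 0.15, edgeR adjusted p = 0.496). Of the 3 tested genes 0 passed by edgeR, DESeq2 or limma or had an unadjusted edgeR p under 0.05. The shares over all genes were 0.509% by edgeR and 13.6% at an unadjusted p under 0.05.

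Glycosylation genes, which serve all secreted proteins and not the zona alone, were led by the oligosaccharyltransferase genes STT3B, STT3A and DDOST at 26.5, 21.6 and 17.9 FPKM. Their 13 tested members had a median of 0.00 between vitrified and fresh oocytes. By edgeR, DESeq2 or limma 0 passed, where 0.509% of all genes passed by edgeR. At an unadjusted edgeR p under 0.05 there was 1 of the 13, against 13.6% of all genes. Of 6 sperm-side genes of zona binding found, kept as a background, ZPBP was counted in 14 of 15 libraries at a mean of 6.42 FPKM, ZAN had 1 count in all, and ACR, SPACA1, PKDREJ and ADAM2 had 0. ZPBP, named for zona binding by the sperm acrosome, was thus detected in these oocyte libraries, with a log2 fold change of -0.11 between vitrified and fresh oocytes (SE 0.44, edgeR adjusted p = 0.949).

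**Figure D4:**
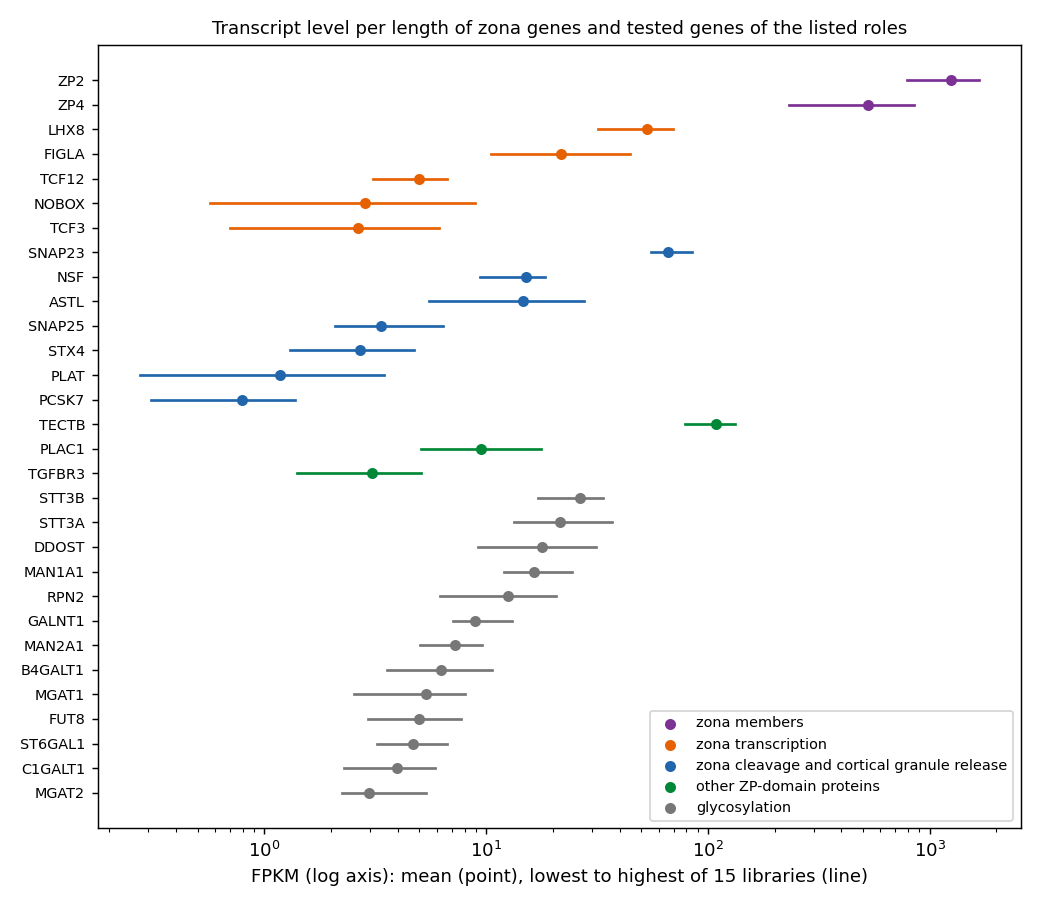
Transcript levels of ZP2, ZP4 and the 28 tested genes of the 4 oocyte-side lists, in FPKM on a log axis, with the mean as a point and the lowest to highest of the 15 libraries as a line. ZP2 and ZP4 (means of 1254 and 527 FPKM) lie above all of these genes, of which TECTB is the next at 109 FPKM.

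Genes whose levels varied most like each zona gene were ranked by Pearson's r of log2(TMM-scaled CPM + 1) over the 15 libraries, among 4844 other genes with a symbol and at least 5 FPKM on average. Nearest to ZP2 were KPNA2, a nuclear import adaptor gene (r = 0.944), CNBP, a nucleic acid-binding protein gene (0.914), the splicing factor gene PRPF3 (0.903), DERL2, a gene of protein disposal from the endoplasmic reticulum (0.862), and the chaperone gene HSPA8 (0.851). Nearest to ZP4 were FUNDC2 (r = 0.835), ARHGEF37 (0.821), the tubulin-modifying enzyme gene TTLL1 (0.801), C1QBP (0.794) and TRIP13, a gene of meiotic chromosome synapsis and the spindle checkpoint (0.782). The 2 zona genes shared none of these neighbours. ZP4 took place 374 in the ranking for ZP2, and ZP2 took place 287 in that for ZP4. These values describe the highest of 4844 correlations over 15 libraries that share groups and scaling.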

How the data were processed

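The submitters' processing notes name the build UMD3.1, StringTie 1.3.0 and HISAT2 2.0.4 without saying what each did. Read filters, strand use and the treatment of multi-mapping reads are not stated in these sources. Whole-number values per gene were deposited under headers that name them counts, and they were taken here as unscaled. The authors also deposited FPKM per gene, and all 180473 values above 0 equalled count over length and library total within 0.1%.

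Counts were analysed with edgeR 4.0.16 in R 4.3.3: filterByExpr (8441 genes), TMM scaling, 1 robust quasi-likelihood fit of all 5 groups with no replicate block, contrasts, and Benjamini-Hochberg adjustment with a threshold of 0.05. Intervals of 95% come from that fit's standard errors. Alternatives used DESeq2 1.42.0, limma 3.58.1 on log2(FPKM + 1) and log2(FPKM + 0.1), other scaling, no filter, fewer groups, a depth term, a replicate block, and each library left out. The fits were tested on simulated data. Deviations of same-numbered libraries correlated over 0.1 in all 3 pairs of helium 6.6 M and fresh (0.162, 0.320 and 0.243). This held in no other pair of groups with 3 shared numbers. The replicate block was nevertheless 1 term over all 15 libraries, and no fit paired helium 6.6 M with fresh alone. Chi-square per degree of freedom between libraries of 1 group was 5.52 to 30.0, far from the value of a repeated library.

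Both zona genes were named in every comparison. Of each list, the members past the threshold and the 3 with the highest mean FPKM were to be named, and further genes were named after their values were seen. The members and lists were chosen with earlier results of these data known.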

Additional observations from a re-analysis of the deposited data

Results flagged for a closer look

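Among the 6 libraries with 6.6 M cryoprotective agent, 1 stood apart in ZP4: helium 6.6 M library 1 held 850 FPKM, against 509 to 622 FPKM in the other 5. Its gap to the nearest library took 0.671 of the whole range of the 6, above Dixon's 95% critical value for 6 values. Such a gap is met by chance in about 1 of 20 groups, and 8 groupings of 6 libraries were examined. Without that library ZP4 differed between 6.6 M and 5.6 M by a log2 fold change of 0.13, and with it by 0.26 (edgeR adjusted p = 1).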

How the results depend on the processing

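None of the 270 alternative values of the 16 zona differences passed the threshold, and 8 changed sign. Of these, 5 were of ZP2 at 6.6 M against 5.6 M and 3 of ZP4 with nitrogen 5.6 M against fresh. ZP2 at 6.6 M against 5.6 M was -0.06, but 0.0129 with the replicate block, 0.002 with depth class and -0.1279 to 0.0023 with 1 library left out. ZP4 with nitrogen 5.6 M against fresh was -0.193 to 0.5258 with 1 library left out. The block changed no zona call. Counts of all genes moved more. No filter gave 142 genes for all vitrified, 160 and 239 for helium at 5.6 M and 6.6 M against fresh, 26 and 60 for nitrogen at 5.6 M and 6.6 M against fresh, 344 for coolant, 3 for concentration and 2 for the interaction. DESeq2 gave 189, 233, 255, 31, 50 and 234 for the first 6 of these. Fits of only the groups compared gave 5, 2 and 1 for helium 5.6 M, helium 6.6 M and nitrogen 6.6 M. The replicate block gave 1, 1, 3 and 1 for all vitrified, helium 5.6 M, helium 6.6 M and nitrogen 6.6 M, and 0 for coolant. Depth class gave 1, 0, 0, 2, 1 and 13 for the first 6. Limma on log2(FPKM + 1) gave 70, 7, 13 and 24 for all vitrified, both nitrogen groups and coolant, and 70, 8, 7 and 25 with a pseudocount of 0.1. With 1 library left out the counts were 5 (without fresh library 1) to 243 (without fresh library 2) for all vitrified, 1 to 431 (without fresh library 2) for helium 5.6 M, 3 (without helium 6.6 M library 2) to 598 (without fresh library 2) for helium 6.6 M, 1 to 3 and 1 to 23 (both highest without fresh library 3) for nitrogen 5.6 M and 6.6 M, and 15 to 71 for coolant. The cause was not tested. The shallowest library, fresh library 1, held 1601519 counts, and what its depth contributes to these counts of genes was not tested.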
